A study of Mus musculus with 8 samples.

Results

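The enzymes that break glucose down to pyruvate and lactate, carry pyruvate into the mitochondrion and oxidise it in the citric acid cycle were examined in cortices of mouse embryos at the E18.5 stage that lack the kinase NUAK1. The genes were taken by symbol from a list of 44 names, of which Pkm and Pkm2 are the same gene, and a gene was kept where its counts summed to at least 80 over the 8 libraries. All 43 genes met that rule, out of 21165 rows in the count table, with 16 in glycolysis, 8 at pyruvate entry and 19 in the citric acid cycle. None was lost to edgeR's filter for low counts, and 12699 genes were tested in all. Pkm is listed in the table under its older symbol, Pkm2.

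RNA of whole dissected cortex was sequenced from 4 embryos with a constitutive Nuak1 deletion (KO) and 4 wild-type embryos (WT) of a line kept on C57Bl/6JRj, with no treatment. NUAK1 is an AMPK-related kinase, and a constitutive deletion removes it from every tissue, so effects that start in neurons, glia or vessels were not separated. The labels give 2 males among the KO and 1 male among the WT embryos, from 3 litters, while the design text of the series speaks of 4, and the columns of the count table carry only the genotype and a running number. Libraries are therefore named by genotype and number, as in KO R1, and p-values measure the spread between these embryos with no account of litter or sex. In bulk tissue, fewer cells of a type and less RNA per cell cannot be told apart.

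Glycolysis turns glucose into pyruvate in the cytosol, and lactate dehydrogenase converts pyruvate to lactate and back. The pyruvate dehydrogenase complex makes acetyl-CoA from pyruvate inside the mitochondrion, under the brake of the pyruvate dehydrogenase kinases, and pyruvate carboxylase instead makes oxaloacetate. Citrate synthase joins both products, and the citric acid cycle oxidises citrate to yield NADH and, through succinate dehydrogenase (complex II), reduced ubiquinone for respiration. The developing cortex is known for a strong use of glycolysis, and several glycolytic genes, with Ldha and Pgk1 among the best known, are targets of the hypoxia-inducible factors (HIF). The question asked of the data was whether the transcripts of these enzymes differ between genotypes, in a study whose subject is mitochondrial metabolism in neurons without NUAK1.

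Totals lay between 11027082 and 27014858 counts in KO and between 9643711 and 18940484 in WT libraries. Nuak1, which lies on chromosome 10, minus strand, from 83833650 to 83903342 (NCBIM37, the assembly behind mm9), had 20.5, 13.7, 11.1 and 11.5 normalized counts in the KO libraries. It had 1377, 1445, 1118 and 877 in the WT libraries, so each column followed its genotype label. Markers of cortical projection neurons were present in every library, with summed normalized counts of 25933 to 28596 in KO and 19127 to 24784 in WT, without overlap. The sums of interneuron markers, 5120 to 5613 in KO and 4124 to 4980 in WT, did not overlap either, although Npy was the only gene of that list with a higher estimate in KO. The part of these markers in the results on the enzymes was not tested. KO R1 stood apart through transcripts of meningeal fibroblasts: all 9 listed markers had a row, 5 were tested, none was at 0 in this library, and the 9 summed to 10333 in this library against at most 383 in any WT library. Col1a1, the collagen chain that defines that list, had 1199 normalized counts in KO R1 and at most 43.8 in any other library. Medians over glycolysis, pyruvate entry and the citric acid cycle, and the estimates of some genes, are given with and without KO R1.

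The upstream sequences of 3 members are shown because each carries ACGTG, the short core of the HIF response element. They are Ldha and Pgk1, the textbook HIF targets of glycolysis, and Mdh1, the member with the smallest p between genotypes. Each is the 250 bases before an annotated start in RefSeq (GRCm38.p6, a later build than that of the counts), written 5′ to 3′ on the strand of the gene, with ACGTG and its reverse complement CACGT in capitals.
Ldha, chr7:46845554-46845803, plus strand: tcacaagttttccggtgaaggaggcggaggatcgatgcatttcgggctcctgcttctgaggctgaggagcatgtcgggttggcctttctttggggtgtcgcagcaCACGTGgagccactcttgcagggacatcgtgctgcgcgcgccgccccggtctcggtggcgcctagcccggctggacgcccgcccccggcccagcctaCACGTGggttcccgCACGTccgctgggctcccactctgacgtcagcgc
Pgk1, chrX:106186850-106187099, plus strand: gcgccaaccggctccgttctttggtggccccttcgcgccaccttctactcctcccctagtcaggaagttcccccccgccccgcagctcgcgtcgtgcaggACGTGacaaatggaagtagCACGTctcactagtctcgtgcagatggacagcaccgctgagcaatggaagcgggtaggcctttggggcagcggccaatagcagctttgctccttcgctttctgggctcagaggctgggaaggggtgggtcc
Mdh1, chr11:21571935-21572184, minus strand: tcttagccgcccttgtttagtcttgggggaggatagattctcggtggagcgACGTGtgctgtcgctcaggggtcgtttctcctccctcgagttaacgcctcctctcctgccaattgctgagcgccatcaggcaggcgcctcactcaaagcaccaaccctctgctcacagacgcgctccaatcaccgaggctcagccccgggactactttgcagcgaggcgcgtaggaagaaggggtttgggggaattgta
In the Ldha sequence the capitals form 3 runs, of which 2 are CACGTG, where both orientations overlap and which is also an E-box. Pgk1 holds 2 runs and Mdh1 a single one, 199 bases before the start. Ldha has another annotated start, whose 250 bases hold no match. Among all 32851 RefSeq promoter entries, 16.6% held ACGTG or CACGT in these 250 bases, and 4998 of the 27025 genes had such an entry. Counted by gene, a match was found in 7 of 16 for glycolysis, in 4 of 8 for pyruvate entry and in 4 of the 17 with an entry for the citric acid cycle. Counted by entry, the shares were 34.6% of 26, 36.4% of 11 and 39.1% of 23, and 6 of the 9 matching entries of the citric acid cycle are starts of Ogdh. A match describes letters in this window and not binding.

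To compare levels between genes, RPKM values were computed from the deposited counts, exon lengths and library sizes. On that scale Gapdh, which oxidises glyceraldehyde 3-phosphate, was the highest member, at 510 ± 38.5 in KO against 475 ± 38.1 in WT (SD, n = 4 each). Pkm, the pyruvate kinase of the brain that makes pyruvate at the end of glycolysis, followed at 375 ± 5.18 in KO against 388 ± 30.2 in WT (SD, n = 4 each). Idh1, the cytosolic NADP-dependent isocitrate dehydrogenase, led the third section at 240 ± 3.33 in KO against 232 ± 6.33 in WT (SD, n = 4 each), although its enzyme works outside the mitochondrion. The mitochondrial Mdh2 and the cytosolic Mdh1 came next, at 191 ± 5.89 and 165 ± 8.70 in KO and at 190 ± 6.93 and 146 ± 10.5 in WT (SD, n = 4 each). Gapdh has 31 near-identical copies elsewhere in the genome, so its level depends on how such reads were counted.

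At the low end stood the inducible or minor isozymes. Hk2, the hexokinase known for its induction by hypoxia and insulin, had 1.24 ± 0.21 RPKM in KO against 1.25 ± 0.27 in WT (SD, n = 4 each), against 40.7 ± 2.18 and 39.8 ± 4.50 for the constitutive brain form Hk1. Suclg2, the GTP-forming subunit of succinyl-CoA ligase, had 2.84 ± 0.40 and 3.09 ± 0.23, against 30.5 ± 1.94 and 27.9 ± 2.03 for the ATP-forming subunit Sucla2. The pyruvate dehydrogenase kinases Pdk1, Pdk2 and Pdk3 lay between 2.92 and 8.37 in all libraries, below Pdha1 and Pdhb, the subunits of the enzyme they phosphorylate, at 28.3 to 33.7 and 89.4 to 105. In the order of levels, close neighbours such as Pgk1 and Ldhb, Sdha and Sdhb, or Idh3a, Pgam1 and Idh2 did not separate, since the ranges over their libraries overlapped.

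**Figure D1:**
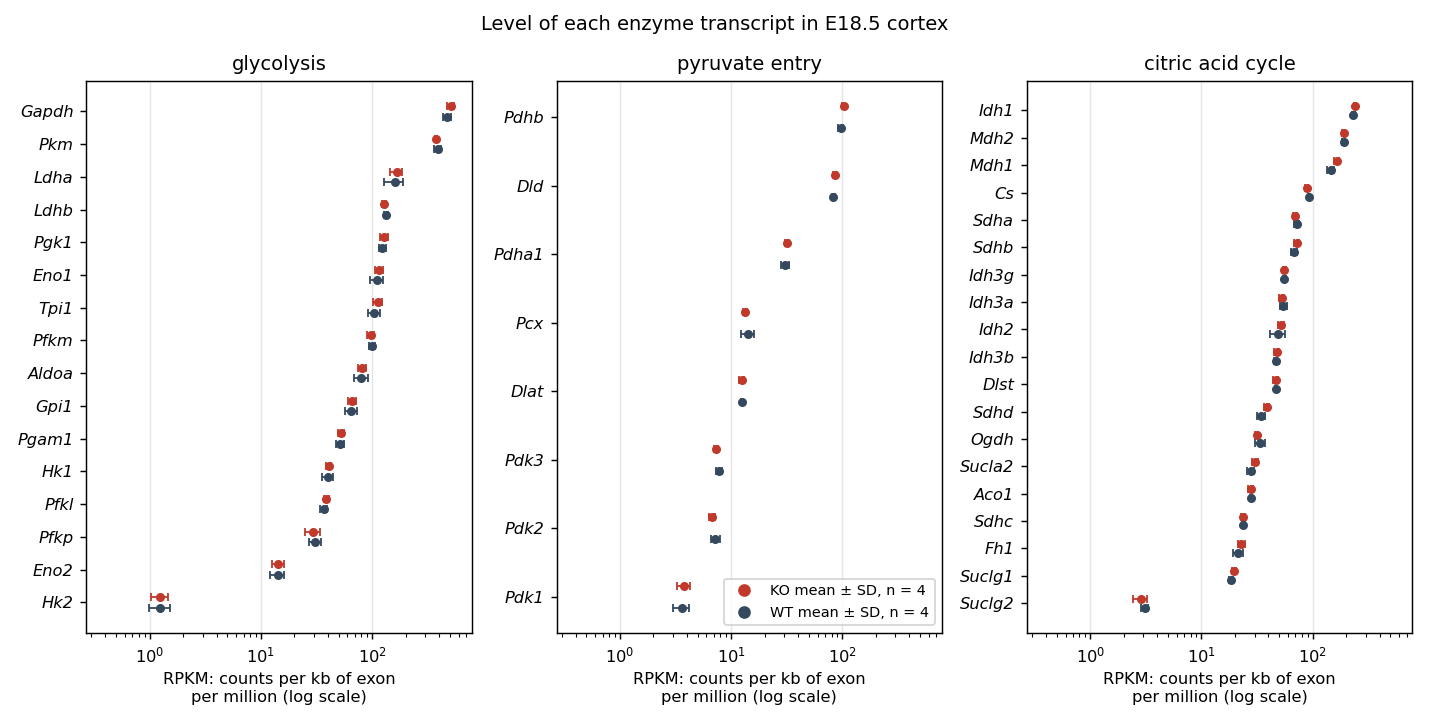
Mean RPKM (x axis, log scale) for each enzyme (y axis, ordered by level) in KO (red) and WT (dark blue), with SD over 4 libraries as bars. Levels run from about 1.24 for Hk2 to 510 for Gapdh, and the KO and WT points of each gene lie close together on this scale.

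No enzyme was called different between genotypes in the tests across all genes, and most estimates were small. With edgeR, 0 of the 43 members passed an adjusted p of 0.05, where 0.0709% of all genes tested did. DESeq2 also called 0 members, against 0.543% of all genes. At the thresholds the study used, an absolute log2 fold change over 0.25 with an unadjusted p under 0.05, edgeR again gave 0 members and 4.25% of all genes. An unadjusted p under 0.05 alone was reached by 2 of the 43 members, Mdh1 and Sdhd, and by 7.69% of all genes tested. Both were higher in KO, as 4.51% of all genes were at that p. No member had 4 KO libraries all above or all below the 4 WT libraries, a pattern that 4.49% of all genes showed.

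The intervals bound how large a difference these libraries allow. All 43 95% intervals of the log2 fold change lay within -0.5 and 0.5, and 26 of them within -0.25 and 0.25. The widest was that of Hk2, from -0.41 to 0.36, at about 122 normalized counts in KO. Estimates ran from -0.13 for Suclg2 to 0.17 for Mdh1. KO was higher in 28 members and lower in 15, where 45.6% of all genes tested were higher. By section, 11 of 16 were higher in glycolysis with a median log2 fold change of 0.03, 4 of 8 at pyruvate entry with 0.02, and 13 of 19 in the citric acid cycle with 0.01, beside -0.01 over all genes tested. The share of a library's counts was 0.568 ± 0.033% in KO and 0.558 ± 0.046% in WT for glycolysis (SD, n = 4 each). For pyruvate entry it was 0.065 ± 0.0017% and 0.0637 ± 0.0028%, and for the citric acid cycle 0.355 ± 0.0058% and 0.349 ± 0.011%, in the same order.

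**Figure D2:**
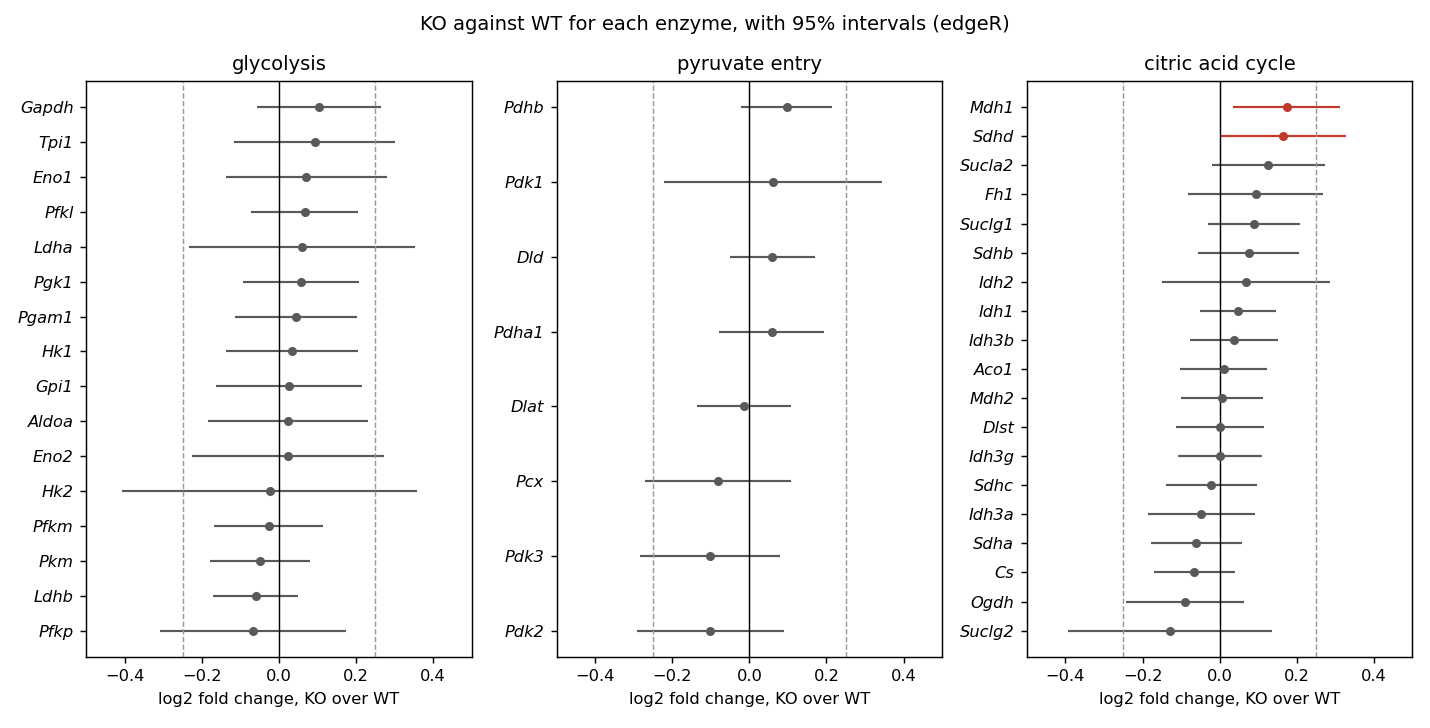
Log2 fold change of KO over WT (x axis) with its 95% interval from edgeR for each enzyme (y axis), in 3 panels by section. Dashed lines mark -0.25 and 0.25, and the 2 members in red, Mdh1 and Sdhd, have an unadjusted p under 0.05, though their adjusted p values were 0.578 and 0.646.

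Mdh1, which lies on chromosome 11, minus strand, from 21456790 to 21472370 (NCBIM37), encodes the cytosolic malate dehydrogenase of the malate-aspartate shuttle, which moves reducing equivalents of glycolysis into mitochondria. It had 7496, 6636, 6957 and 6827 normalized counts in KO R1 to R4 and 6273, 6147, 5622 and 6704 in WT R1 to R4. Every KO library was above the WT median, but WT R4 exceeded KO R2, so the genotypes overlapped. The log2 fold change was 0.17 (standard error 0.06, 95% interval 0.04 to 0.31, unadjusted p = 0.0182, adjusted p = 0.578 from edgeR), and DESeq2 gave an adjusted p = 0.333. It kept its direction and an unadjusted p under 0.05 in all 8 fits with a library left out, with estimates from 0.14 without WT R3 to 0.22 without WT R4, while no adjusted p fell under 0.232. An exon of Wdpcp lies over 52 bases of Mdh1 on the other strand. Mdh2, the mitochondrial malate dehydrogenase of the cycle itself, had a log2 fold change of 0.01 with an interval from -0.10 to 0.11.

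Sdhd, the small membrane anchor of succinate dehydrogenase, had 858, 757, 800 and 861 normalized counts in KO and 755, 778, 649 and 740 in WT. KO R2 lay below WT R2, and WT R3 was the lowest library. The log2 fold change was 0.16 (standard error 0.07, 95% interval 0.0033 to 0.33, unadjusted p = 0.0462, adjusted p = 0.646 from edgeR). Its unadjusted p stayed under 0.05 in 2 of the 8 fits with a library left out, without KO R2 and without WT R2, and was highest at 0.133 without WT R3. The other subunits of the complex had log2 fold changes of -0.06 (Sdha, the flavoprotein), 0.08 (Sdhb, the iron-sulfur subunit) and -0.02 (Sdhc, the other anchor), and each of their intervals included 0.

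**Figure D3:**
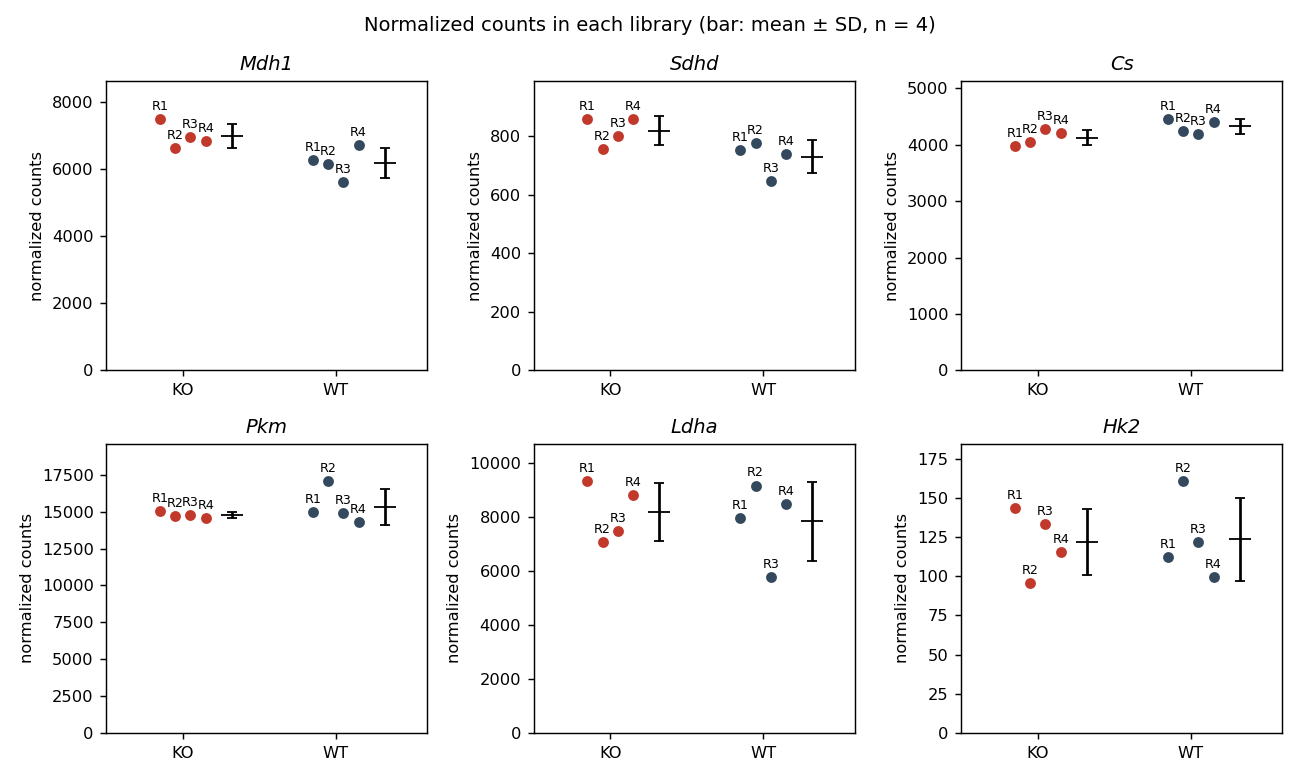
Normalized counts (y axis, from 0) in each of the 4 KO (red) and 4 WT (dark blue) libraries, marked R1 to R4, for 6 enzymes, with the mean and SD beside them. Mdh1 and Sdhd sit higher in KO with overlap, Cs a little lower with overlap, Pkm is tight in KO, and Ldha has its lowest value, 5766, in WT R3.

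Cs, which encodes citrate synthase, the entry of the cycle, lies on the plus strand of chromosome 10 from 127774888 to 127799535 (NCBIM37). It had 3982, 4044, 4277 and 4214 normalized counts in KO and 4463, 4240, 4191 and 4407 in WT. All 4 KO libraries lay below the WT median, yet KO R3 exceeded WT R2 and WT R3. The log2 fold change was -0.07 (standard error 0.05, 95% interval -0.17 to 0.04, unadjusted p = 0.192, adjusted p = 0.805 from edgeR) and the same interval as a fold runs from 0.888 to 1.03. Across the fits that each omit a library, the estimate of Cs stayed between -0.08 and -0.04.

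Within the cycle, the NAD-dependent isocitrate dehydrogenase, a main point of control, passed no test in any subunit. Its catalytic subunit Idh3a had 2074, 2127, 2321 and 2275 normalized counts in KO and 2353, 2389, 2037 and 2317 in WT, with the lowest value in WT R3. The log2 fold change of Idh3a was -0.05 (95% interval -0.19 to 0.09), and those of the other subunits Idh3b and Idh3g were 0.04 and 0.00. Ogdh, the substrate-binding subunit of the 2-oxoglutarate dehydrogenase complex, had 2770, 2826, 2795 and 2950 normalized counts in KO and 3011, 2646, 3032 and 3395 in WT. All 4 KO libraries of Ogdh lay below the WT median, while WT R2 was the lowest of all. Its log2 fold change was -0.09 (95% interval -0.24 to 0.06, unadjusted p = 0.227, adjusted p = 0.822 from edgeR), and without WT R2 it was -0.15 with an adjusted p = 0.555. Dlst, which completes that complex, had 0.00 with an interval from -0.11 to 0.11.

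The remaining steps of the cycle had estimates of both signs. Succinyl-CoA ligase had 0.09 for the shared subunit Suclg1, 0.13 for Sucla2 and -0.13 for Suclg2, and none passed an unadjusted p of 0.05. Without KO R1 the estimate of Suclg2 was -0.22. Its genotypes then did not overlap, a pattern that 6.8% of all genes showed in that setting. Fh1, the fumarase, had 0.09 with an interval from -0.08 to 0.27. Idh2, the mitochondrial NADP-dependent enzyme, was the most variable member of the cycle, with 1657 normalized counts in WT R4 and 2074 to 2414 in the other libraries. Idh1, from 9354 to 10187, had the smallest standard deviation within genotypes of all members, and Idh3g the narrowest range over the 8 libraries for its level, from 2402 to 2611. Aco1, the cytosolic aconitase, had 0.01.

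In glycolysis, the enzymes at its control points were read library by library. Hk1 had 5601, 5708, 5479 and 6181 normalized counts in KO and 5685, 4950, 5364 and 6449 in WT. Hk2 had 143, 95.8, 133 and 115 in KO and 112, 160, 122 and 99.7 in WT. For both hexokinases the genotypes overlapped, with log2 fold changes of 0.03 (95% interval -0.14 to 0.21) and -0.02 (95% interval -0.41 to 0.36).

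Phosphofructokinase, the committed step, is built from 3 kinds of subunit. The liver-type Pfkl had 3001, 2679, 2706 and 2877 normalized counts in KO and 2741, 2907, 2439 and 2662 in WT. The muscle-type Pfkm had 4482, 5054, 4870 and 5344 in KO and 5217, 5258, 4641 and 5010 in WT. The platelet-type Pfkp had 3823, 4771, 4277 and 5455 in KO and 4647, 4565, 4372 and 5655 in WT. Pfkm and Pfkp had their lowest value in KO R1, where 6 of the 16 glycolytic members had their highest. Log2 fold changes were 0.07 for Pfkl, -0.03 for Pfkm and -0.07 for Pfkp, with the widest interval, -0.31 to 0.17, for Pfkp. Without KO R1 the estimate of Pfkm was 0.02. Exons of Pitrm1 lie over 372 bases of Pfkp on the other strand.

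Pkm had 15081, 14736, 14787 and 14594 normalized counts in KO and 14988, 17056, 14911 and 14337 in WT. Apart from WT R2 its libraries lay close together, and the log2 fold change was -0.05 (95% interval -0.18 to 0.08). Ldha, which favours the making of lactate, had 9325, 7074, 7482 and 8835 in KO and 7962, 9174, 5766 and 8483 in WT, with a log2 fold change of 0.06 (95% interval -0.23 to 0.35). The spread of Ldha within a genotype was thus wider than its difference between genotypes. Ldhb, whose tetramers favour pyruvate, went from 3157 to 3430 in KO and from 3273 to 3570 in WT, with a log2 fold change of -0.06. Of the steps between, Gapdh and Tpi1 had the highest estimates, 0.10 and 0.09, with intervals from -0.06 to 0.27 and from -0.12 to 0.30, and Aldoa, Pgk1, Pgam1, Eno1, Eno2 and Gpi1 lay between 0.02 and 0.07. Besides Gapdh, near-identical copies elsewhere in the genome can take or give reads for Eno1, Pgam1 and Pgk1 (2 each) and for Suclg2 (1).

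At pyruvate entry, Pdha1, the X-linked catalytic subunit of pyruvate dehydrogenase, had 1913, 1981, 1918 and 2099 normalized counts in KO and 1901, 1846, 1764 and 2098 in WT. Its log2 fold change was 0.06 (95% interval -0.08 to 0.19), and exons of Map3k15 cover 603 bases of it on the other strand. Its partner Pdhb had 2557, 2402, 2555 and 2573 in KO and 2307, 2460, 2193 and 2481 in WT, with a log2 fold change of 0.10 (95% interval -0.02 to 0.22, adjusted p = 0.745 from edgeR). The core acetyltransferase Dlat had -0.01 and Dld, the shared flavoprotein, 0.06. Of the kinases, Pdk1, a HIF target, had 0.06 and Pdk2 and Pdk3 -0.10 each, and Pcx, the pyruvate carboxylase of astrocytes, had -0.08. Over all 43 members, every KO library lay above the WT median in 7 (Pdha1, Pdhb, Dld, Idh1, Suclg1, Sdhd and Mdh1) and below it in 7 (Ldhb, Pdk3, Pcx, Cs, Idh3a, Ogdh and Sdha), where 15.3% and 17.6% of all genes tested did so.

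Many glycolytic genes were high or low in the same libraries of a genotype. For each gene, the log2 normalized count was set against its mean over the 8 libraries, and the median of these deviations was taken over a section. For glycolysis it was 0.13, -0.08, -0.03 and 0.09 in KO R1 to R4 and -0.01, 0.06, -0.18 and 0.11 in WT R1 to R4. KO R1 and WT R4 were thus at the top, WT R3 at the bottom, and the genotypes overlapped. WT R3 was the lowest of the 8 libraries in 10 of the 16 glycolytic genes, and KO R1 the highest in 6. For the citric acid cycle the medians ran from -0.02 to 0.05 in KO and from -0.07 to 0.02 in WT, and WT R3 was again the lowest, in 10 of the 19 genes. At pyruvate entry they ran from -0.05 to 0.02 in KO and from -0.03 to 0.07 in WT. Without WT R3, the median log2 fold change of glycolysis was -0.04 in place of 0.03, so its sign rests on that library. Without KO R1, which held the meningeal transcripts, it was 0.02, that of pyruvate entry was -0.02 in place of 0.02 and that of the citric acid cycle 0.04 in place of 0.01.

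**Figure D4:**
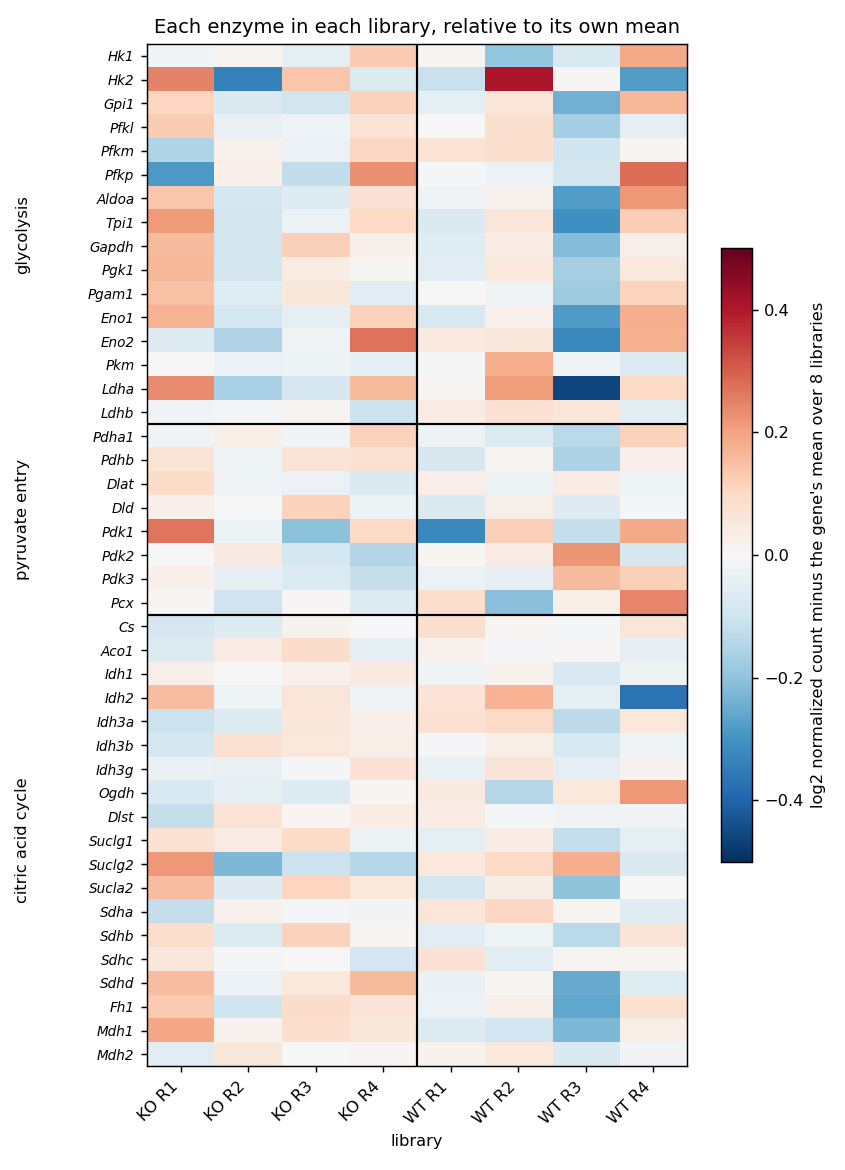
Log2 normalized count of each enzyme (rows, by section) in each library (columns, KO to the left of the line) minus the gene's mean over the 8 libraries, from -0.5 (blue) to 0.5 (red). Columns differ more than the blocks of KO and WT do, with WT R3 blue and KO R1 red through much of glycolysis, and the citric acid cycle is paler.

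Spread between libraries of a genotype had its highest median in glycolysis. The median standard deviation within genotypes was 0.14 on the log2 scale for glycolysis, 0.08 for pyruvate entry and 0.07 for the citric acid cycle. Among the 3990 genes with a mean of at least 1000 normalized counts, the median was 0.09. Of the members at that level, 13 of 15 glycolytic genes were above this median, against 0 of 4 at pyruvate entry and 5 of 17 in the cycle. The medians of the members at that level alone were 0.13, 0.062 and 0.061, in the same order. Hk2 (0.27) and Ldha (0.25) varied most and Idh1 (0.03) least. Without WT R3 the spread of glycolysis was 0.11, and with each library left out it ranged from 0.11 to 0.15.

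Some of the other lists had their extremes in the same libraries. The 16 tested of 17 hypoxia-responsive genes had a median deviation of 0.23 in KO R1 and -0.21 in WT R3, their highest and lowest libraries, as in glycolysis. Summed, they had 13102 to 14697 normalized counts in KO and 12303 to 14630 in WT, and Car9 was at 0 in 3 WT libraries. The 9 endothelial markers were also highest in KO R1 (0.48) and lowest in WT R3 (-0.28), with sums of 3594 to 5545 in KO and 3351 to 3875 in WT. Progenitor markers were highest in WT R3, at 0.34, and their sums ran from 10176 to 13654 in KO and from 9597 to 16084 in WT. The 7 tested of 8 microglial markers were highest in KO R1 (0.68) and lowest in WT R3 (-0.35), and summed to 527 to 1076 in KO and 523 to 747 in WT. The 9 glucose, lactate and pyruvate transporters, a list of related genes, were likewise highest in KO R1 (0.15) and lowest in WT R3 (-0.15). The remaining lists did not have their highest value in KO R1 together with their lowest in WT R3. In WT R4, also high in glycolysis, the astrocyte and oligodendrocyte markers (0.42) and the interneuron markers (0.22) were at their highest, and those of projection neurons (-0.21) and red blood cells (-0.92) at their lowest. The part of these cells or of hypoxia in the library pattern of the enzymes was not tested.

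Of the hypoxia-responsive list, 11 of 16 genes were higher in KO, with a median of 0.09, where 45.6% of all genes tested were higher. The median deviation of the list was 0.23 in KO R1, from -0.07 to 0.08 in the other KO libraries, and from -0.21 to 0.07 in WT. Adm, the vasodilator peptide adrenomedullin, had 62.8, 48.7, 48.3 and 51.9 normalized counts in KO and 30.8, 34.2, 22.5 and 35.5 in WT, without overlap. Car12, a carbonic anhydrase, went the other way without overlap, with 29.5, 25.9, 43.3 and 52.6 in KO and 59.6, 64.0, 76.6 and 84.5 in WT. Their log2 fold changes were 0.77 and -0.85, with adjusted p values of 0.421 and 0.44 from edgeR, so neither passed. Vegfa and Bnip3, well-known HIF targets, had log2 fold changes of 0.11 and 0.12, and both intervals included 0.

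The balance of isozymes was followed as 7 shares of counts within a library, each compared by a 2-sided exact permutation test over libraries and adjusted over the 7. The smallest p that 4 libraries against 4 can give is 0.0286, and no share reached it. Mdh1 made up 51.5 ± 2.05% of Mdh1 and Mdh2 counts in KO against 48.5 ± 1.58% in WT (SD, n = 4 each; exact permutation p = 0.0571, adjusted 0.3). Suclg2 made up 7.33 ± 0.63% of its pair with Sucla2 in KO against 8.66 ± 1.08% in WT (SD, n = 4 each; exact permutation p = 0.0857, adjusted 0.3). The share of Ldha among the lactate dehydrogenases was 70.9 ± 3.17% in KO against 68.9 ± 4.79% in WT (SD, n = 4 each), and the WT value includes 61.9% in WT R3. Without that library the difference turned from 1.98 to -0.34 percentage points. Hk2 stayed a minor hexokinase at 2.09 ± 0.41% in KO and 2.20 ± 0.69% in WT, and Pfkp gave 37.0 ± 2.62% and 38.3 ± 2.89% of phosphofructokinase counts. Per kilobase of exon, Pfkp gave 17.7 ± 1.53% in KO (SD, n = 4), with a KO minus WT difference of -0.78 percentage points. The neuronal Eno2 gave 9.77 ± 1.01% and 10.1 ± 0.44% of enolase counts, and Idh1 gave 82.0 ± 0.86% and 82.3 ± 2.14% of the NADP-dependent pair. Adjusted p values of these other shares were at least 0.88.

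**Figure D5:**
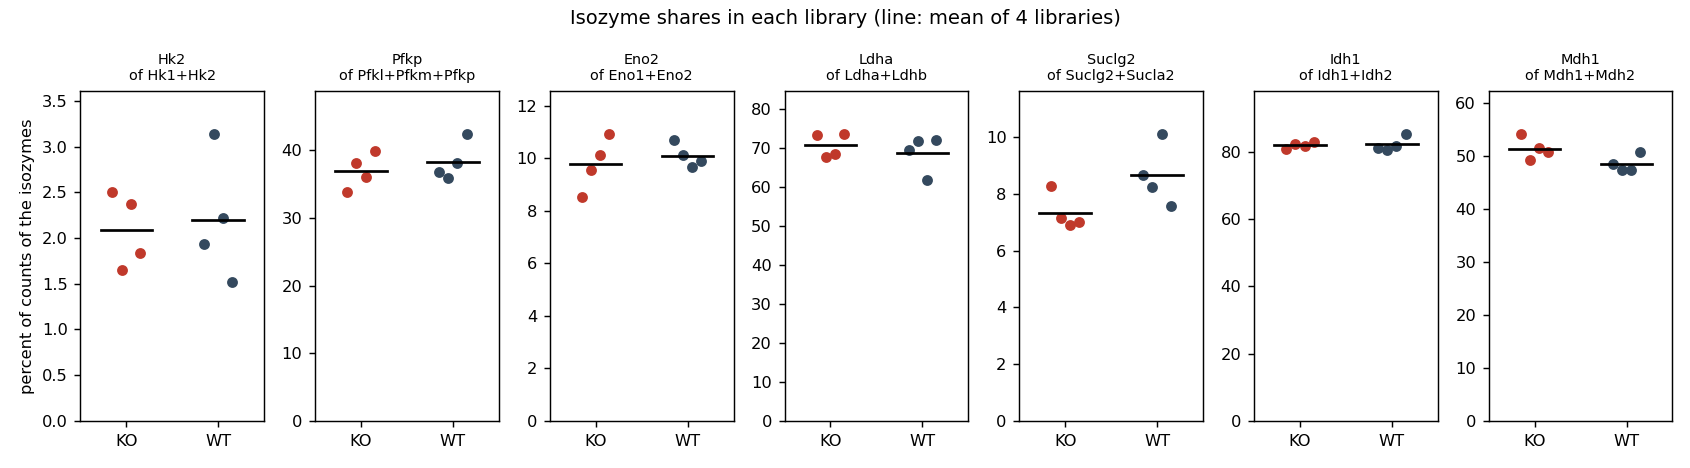
Share of counts in percent (y axes, from 0) of the first-named isozyme among the isozymes in the panel title, in each KO (red) and WT (dark blue) library, with the mean of 4 libraries as a line. The points of KO and WT overlap in each of the 7 panels, least so for Mdh1, where only KO R2 lies below a WT library, R4.

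Genes around these pathways were read from the same fit. Of 65 genes in 6 related lists that had a row, 53 were tested, 22 were higher in KO and the median log2 fold change was -0.02. Over all genes tested, 45.6% were higher in KO. None of the 53 passed an adjusted p of 0.05 with edgeR, and 2 had an unadjusted p under 0.05, both lower in KO. Slc16a1, the monocarboxylate transporter MCT1 that moves lactate, had 340, 252, 248 and 258 normalized counts in KO and 299, 346, 355 and 346 in WT. KO R1 lay among the WT libraries and the other 3 KO libraries below them all. Its log2 fold change was -0.30 (95% interval -0.55 to -0.05, unadjusted p = 0.0248, adjusted p = 0.611 from edgeR), and without KO R1 it was -0.40 with an adjusted p = 0.395. Got1, the cytosolic aspartate aminotransferase that works with Mdh1 in the malate-aspartate shuttle, had 944, 1002, 1045 and 1058 in KO and 1097, 1137, 1037 and 1231 in WT. The log2 fold change of Got1 was -0.15 (95% interval -0.30 to -0.0043, unadjusted p = 0.0446, adjusted p = 0.645 from edgeR), opposite in sign to that of Mdh1.

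By list, 3 of the 7 tested other glycolytic isozymes were higher in KO (median -0.01), with Aldoc, the aldolase of astrocytes, at -0.24 and an interval from -0.51 to 0.03. The regulators of glycolysis and pyruvate entry had 5 of 9 higher (median 0.02), and Pfkfb3, which makes the activator of phosphofructokinase, had 0.02. Of the glucose, lactate and pyruvate transporters, 5 of 9 were higher (median 0.12). In that list Slc2a1, the glucose carrier of the blood-brain barrier, had 0.12, the neuronal Slc2a3 -0.04, and Mpc1 of the mitochondrial pyruvate carrier 0.14, with intervals that each included 0. Slc2a1 had 1272 normalized counts in KO R1, 778, 962 and 976 in KO R2 to R4, and 851 to 1013 in WT. For the other citric acid cycle and complex II assembly genes 3 of 5 were higher (median 0.00061), and for the pentose phosphate pathway 3 of 7 (median -0.01). Anaplerotic and shuttle genes were higher in 3 of 16 (median -0.08). Their summed normalized counts, over the 19 with a row, were 27314 to 28337 in KO and 28658 to 29831 in WT, without overlap. Acly gave the largest part of these sums, at 9591 to 10033 in KO and 9094 to 12114 in WT, and overlapped between genotypes. The sums of the other related lists overlapped between genotypes, and no sum was tested. Got1 was the member of that list with an unadjusted p under 0.05, and Got2 and Glud1, its mitochondrial partner and glutamate dehydrogenase, had -0.09 and -0.08.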

How the data were processed

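Cortical RNA of 8 embryos was enriched for poly-A, made into libraries with a stranded kit and sequenced. According to the submitters' processing notes and the study's methods, reads were trimmed by the authors (Cutadapt 1.13, Prinseq), aligned to the mm9 assembly (TopHat2 2.0.13, SAMtools 0.1.19) and counted per gene by HTSeq-count, whose strand setting is not given in the sources used here. They deposited whole-number counts, not normalized, with 0 summary rows, 0 unused per-library columns and no columns of their own comparisons.

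The main test was the quasi-likelihood test of edgeR 4.0.16 under R 4.3.3, after filterByExpr and TMM, with Benjamini-Hochberg adjustment over all genes tested. A standard error is the absolute log2 fold change divided by the square root of F. Normalized counts are scaled to the mean effective library size. Depth ran from 9643711 to 27014858 counts per library, and the closest libraries of a genotype differed by a chi-square of 5.92 per degree of freedom. Alternatives were DESeq2 1.42.0 (the tool of the study), edgeR on its size factors, a fit of all genes with any count, a minimum of 10 counts per library, omission of each library and shares per kilobase. Exon lengths, positions and copies (at least 98% identity over 50% of the transcript) came from GENCODE on NCBIM37. The scripts were tested on simulated data.

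Members and lists were chosen with earlier results of these data known. Every member is given by level and range. Values in each library are given for Nuak1, Cs, the enzymes known to control flux, Pdhb and Ldha (chosen after their values were seen) and members with an unadjusted p under 0.05. Genes of related and marker lists are named where their unadjusted p was under 0.05 or where they define a list. The others named from those lists were chosen after their values were seen. For 1 gene of the related lists, results are not reported here.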

Additional observations from a re-analysis of the deposited data

Results flagged for a closer look

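Dixon's test was applied to the lowest and highest library of each genotype. Of 108 groups of 4 libraries, 1 held a value past the 95% critical value, where chance gives about 5.4 (1 in 20). It is Pdhb, a subunit of pyruvate dehydrogenase, with 2402 normalized counts in KO R2, below 2555 to 2573 in the other KO libraries and inside the WT range of 2193 to 2481.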

How the results depend on the processing

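No paired analysis was possible because no column could be matched to an embryo, and litter as a block, which had been planned, was not run for the same reason. DESeq2, its size factors, no low-count filter and a minimum of 10 counts per library turned no member's direction. In every alternative, 0 members passed an adjusted p of 0.05 or the thresholds of the study. Of 516 member values recomputed, 482 kept direction and side of the threshold. The other 34, in 18 members, changed sign, in each case with a library left out and a main estimate of at most 0.07 in size. The cause was not tested. With a library omitted, the log2 fold change ranged from -0.020 to 0.042 for Aco1, -0.053 to 0.11 for Aldoa, -0.038 to 0.0093 for Dlat, -0.011 to 0.044 for Dlst, -0.075 to 0.089 for Eno2, -0.040 to 0.092 for Gpi1, -0.021 to 0.11 for Hk1 and -0.10 to 0.14 for Hk2. It ranged from -0.020 to 0.14 for Idh2, -0.025 to 0.024 for Idh3g, -0.057 to 0.14 for Ldha, -0.011 to 0.032 for Mdh2, -0.028 to 0.14 for Pdk1, -0.067 to 0.024 for Pfkm, -0.16 to 0.024 for Pfkp, -0.00073 to 0.094 for Pgam1, -0.075 to 0.0055 for Pkm and -0.043 to 0.0035 for Sdhc. Outside the members it ranged, for the meningeal marker Ptgds, from -0.41 without KO R1 to 4.28. Medians ranged from -0.024 to 0.036 at pyruvate entry and from -0.035 to 0.091 in glycolysis. Isozyme shares, KO minus WT in percentage points, ranged from -0.34 to 0.20 for Hk2, -2.31 to 0.021 for Pfkp, -0.70 to 0.099 for Eno2, -0.34 to 3.07 for Ldha and -0.87 to 0.74 for Idh1.

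With a library omitted, 1 to 5 members had an unadjusted p under 0.05, with 5 without WT R2 (Pcx, Ogdh, Sucla2, Sdhd and Mdh1), where 8.12% of all genes tested did, and 5.03% to 12.4% over the 8 fits. Between 0 and 5 members had no overlap between genotypes. It was 5 without KO R2 or WT R2, where 9.13% and 8.93% of all genes had none, and 3 without WT R4, where 12.3% had none. Counts of members under an unadjusted p, and the spread without each library, were added after seeing the data.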
